A study of Mus musculus with 12 samples.

Results

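The genes described here were 7 genes linked to the epithelial-mesenchymal transition, namely Snai1, Snai2, Twist1, Twist2, Vim, Fn1 and Lgals1. They were taken by gene name from the non-control spots of the arrays, which gave 10 of 41174 probes and 7 of 27670 genes. They were followed in NR-S1, a squamous cell carcinoma implanted into a hind leg of male C3H/HeMsNrs mice (given once as C3H/HeNrs), from where it metastasises to the lung. The 6 RNAs compared were those of the unirradiated primary tumour, the primary tumour after 8 Gy of gamma rays, the primary tumour after 5 Gy of carbon ions, and lung metastases of unirradiated, gamma-irradiated and carbon-irradiated mice. Irradiation was given to the leg tumour when its diameter reached 7.5 mm, never to the lung, and primary tumours were collected 1 week and metastases 2 weeks after that size. Primaries and metastases came from different mice, and tumour cells were isolated with a laser microdissection step in every case. The labels name a single clone and give 1 RNA per group, with no mouse age and no number of animals behind an RNA, so no difference below has a replicate check and no p-value is given.

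In the epithelial-mesenchymal transition, epithelial cells loosen their junctions and take on the shape, motility and matrix production of mesenchymal cells. Snai1 and Snai2 encode zinc finger repressors that bind E-boxes in the promoters of junction genes, and Snai2 is also normally expressed in basal keratinocytes of stratified epithelium. Twist1 and Twist2 encode basic helix-loop-helix factors that are active in embryonic mesenchyme and in fibroblasts. Vim encodes vimentin, the intermediate filament of mesenchymal cells, Fn1 encodes the matrix glycoprotein fibronectin, and Lgals1 encodes galectin-1, a secreted lectin with immune-suppressive activity. Fibroblasts, endothelium and leukocytes also express Vim and Lgals1, and fibroblasts and macrophages also express Fn1.

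RefSeq promoter sequences on GRCm38.p6 were found for 4 of the 7 genes, Snai1, Twist1, Twist2 and Vim. Promoters of the repressor that was higher in the unirradiated metastasis and of the Twist factors that were both lower in the carbon-group metastasis are shown, as the 250 bases before the annotated start, 5′ to 3′. Capitals mark matches, on both strands, to the E-box CAGGTG or CACCTG, the GC box GGGCGG or CCGCCC, and the TATA motif TATAAA.
Snai1 promoter, chr2:167537945-167538194, plus strand: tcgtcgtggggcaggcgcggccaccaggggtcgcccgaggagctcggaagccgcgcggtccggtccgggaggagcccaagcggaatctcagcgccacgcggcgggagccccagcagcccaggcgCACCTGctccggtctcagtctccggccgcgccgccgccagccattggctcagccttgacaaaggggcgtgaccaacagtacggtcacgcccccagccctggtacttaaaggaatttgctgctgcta
Twist1 promoter, chr12:33957421-33957670, plus strand: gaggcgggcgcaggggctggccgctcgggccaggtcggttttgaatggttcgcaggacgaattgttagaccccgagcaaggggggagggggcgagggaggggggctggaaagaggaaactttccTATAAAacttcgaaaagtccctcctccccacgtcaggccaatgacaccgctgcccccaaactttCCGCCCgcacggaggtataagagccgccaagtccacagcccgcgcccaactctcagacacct
Twist2 promoter, chr1:91801211-91801460, plus strand: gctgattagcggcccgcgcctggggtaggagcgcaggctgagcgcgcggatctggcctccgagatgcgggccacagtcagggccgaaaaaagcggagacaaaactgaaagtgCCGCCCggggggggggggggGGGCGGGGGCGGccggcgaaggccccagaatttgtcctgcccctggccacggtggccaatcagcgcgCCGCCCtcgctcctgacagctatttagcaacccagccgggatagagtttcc
The Snai1 promoter held 1 E-box, CACCTG, whose first base lay at -126 from the start, a motif found in 17.22% of 32851 promoter windows of the same length. It was also the only one of the 4 with a match to the wider pattern CANNTG, of which CACCTG is a case and which 66.22% of windows held. Twist2 held 4 GC boxes, the first at -138, and Twist1 held 1, at -62, against 32.74% of windows with any. TATAAA stood at -126 in Twist1 and at -32 in Vim, and 12.37% of windows held it. These matches describe letters, and no binding was measured.

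Of the 11 comparisons, 6 were between RNAs hybridised together on 2 arrays with the dyes exchanged, 12 arrays in all. The other 5 were taken through the unirradiated primary. Ratios below are log2 values, mean ± SD over the 2 dye orientations. A gene is said to have risen or fallen where it was at least 2-fold apart with the same sign in both orientations. The SD covers array and dye error only and leaves out the spread between mice. All 7 genes were measured in every comparison, and the probe that stood for each was well above background in 24 of 24 channels with no saturated spot. Their brightness differed widely, with Lgals1 at percentile 99.69 of all probes, Vim at 98.86, Snai2 at 98.44, Fn1 at 84.84, Twist1 at 73.34, Twist2 at 65.18 and Snai1 at 58.1, which ranks probes and does not compare transcripts. The brightest spots had been read from a second scan at lower gain, which supplied 22 of 24 channels for Lgals1, 23 for Vim and 19 for Snai2 and none for the other genes. On 5 arrays the Cy5 and Cy3 channels of Snai2 came from different scans, as they did on 2 arrays for Lgals1 and on 1 for Vim.

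Some members also carried a dye offset. In each of the 6 direct comparisons Lgals1 gave a higher ratio with the first RNA in Cy5 than with it in Cy3, by 0.39 to 0.97. Twist2 behaved alike, by 0.35 to 0.49, and Snai2 by 0.15 to 0.30, whereas Fn1 gave a lower ratio that way in all 6, by 0.09 to 0.17. An offset of this kind cancels in the mean of a dye swap and widens its SD. Vim and Fn1 had further probes. The second Vim probe was above background in 0 of 24 channels and was not used, and of the other Fn1 probes the first was above background in 24 of 24 channels and the dimmest in 10.

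Twist2 and Lgals1 shared a level pattern in which the irradiated primaries and the carbon-group metastasis stood lowest. By mean level the unirradiated primary ranked first for both. The unirradiated metastasis against this primary gave 0.32 and -0.65 for Lgals1, so that rank has no settled direction, and -0.04 and -0.42 for Twist2. On a normalised log2 signal scale, Lgals1 ran from 16.72 to 17.57 over the 10 arrays with the unirradiated primary, with a median of 17.20. In the gamma-irradiated primary it read 16.28 and 16.26 in Cy5 and 15.24 and 16.21 in Cy3, and in the carbon-irradiated primary 15.69, 15.60, 14.60 and 15.27. The 2 arrays of each metastasis gave 17.04 and 16.54 unirradiated, 16.54 and 15.98 after gamma rays, and 16.08 and 15.29 after carbon ions. No array of either irradiated primary or of the irradiated lung groups reached the lowest reading of the unirradiated primary. Neighbours in the order of Lgals1 overlapped at each step.

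Twist2 ran from 8.94 to 9.29 in the unirradiated primary, with a median of 9.13. It lay between 7.76 and 8.01 in the gamma-irradiated primary and between 7.62 and 7.96 in the carbon-irradiated one. The unirradiated metastasis gave 8.94 and 8.78, the gamma group 8.25 and 8.11, and the carbon group 7.93 and 7.81. The 3 highest RNAs in this order did not overlap, the first pair being separated by under 0.01, and the lowest 3, the irradiated primaries and the carbon-group metastasis, overlapped with their neighbours.

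Snai1 and Snai2 ran in nearly opposite order. Snai1 was highest in the unirradiated metastasis, at 8.70 and 8.83, followed by 7.83 and 7.96 in the gamma group and 7.77 and 7.83 in the carbon group. It lay between 7.50 and 7.66 in the unirradiated primary (median 7.58), 7.32 and 7.45 in the gamma-irradiated primary, and 7.08 and 7.26 in the carbon-irradiated primary. Every RNA in the Snai1 order was separate from its neighbours, although the gamma and carbon metastases were separated by under 0.01. Snai2 was lowest in the unirradiated metastasis, at 13.86 and 13.61. It read 14.61 and 14.50 in the gamma-group metastasis, 14.80 and 14.61 in the carbon group, and 14.81 to 15.15 in the unirradiated primary, with a median of 15.03. The Snai2 ranges of the 3 primaries overlapped with their neighbours, from 14.71 to 14.90 after gamma rays and from 15.01 to 15.18 after carbon ions.

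Twist1 was higher in the primaries than in the metastases. Its readings were 9.44 to 9.99 in the unirradiated primary (median 9.86), 9.42 to 9.87 after carbon ions and 9.44 to 9.59 after gamma rays, and these 3 overlapped. In metastases it gave 9.23 and 9.27 without irradiation, 8.81 and 8.87 in the carbon group and 8.74 and 8.86 in the gamma group, and these last ranges overlapped. Fn1 was highest in the unirradiated metastasis, at 11.84 and 11.95, and lowest in the gamma-irradiated primary, from 10.81 to 10.90, and the gamma-group metastasis, at 10.82 and 10.88, which overlapped. Between these lay the carbon-group metastasis at 11.36 and 11.48, the carbon-irradiated primary from 11.29 to 11.35 and the unirradiated primary from 11.11 to 11.23, each apart from its neighbours on this probe. The second Fn1 probe, also above background in every channel, gave another order, with the carbon-group metastasis at 9.04 and 9.20 below the unirradiated primary (9.20 to 9.44) and the carbon-irradiated primary (9.36 to 9.41), whose ranges overlapped. It too was highest in the unirradiated metastasis, at 9.77 and 9.85. Vim covered the narrowest span, from 14.86 and 14.92 in the gamma-group metastasis to between 15.41 and 15.45 in the carbon-irradiated primary, with the unirradiated primary between 15.00 and 15.31. The gamma-irradiated primary (15.05 to 15.20), the unirradiated metastasis (15.31 on both arrays) and the carbon-group metastasis (15.26 and 15.34) overlapped with neighbours in that order.

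**Figure D1:**
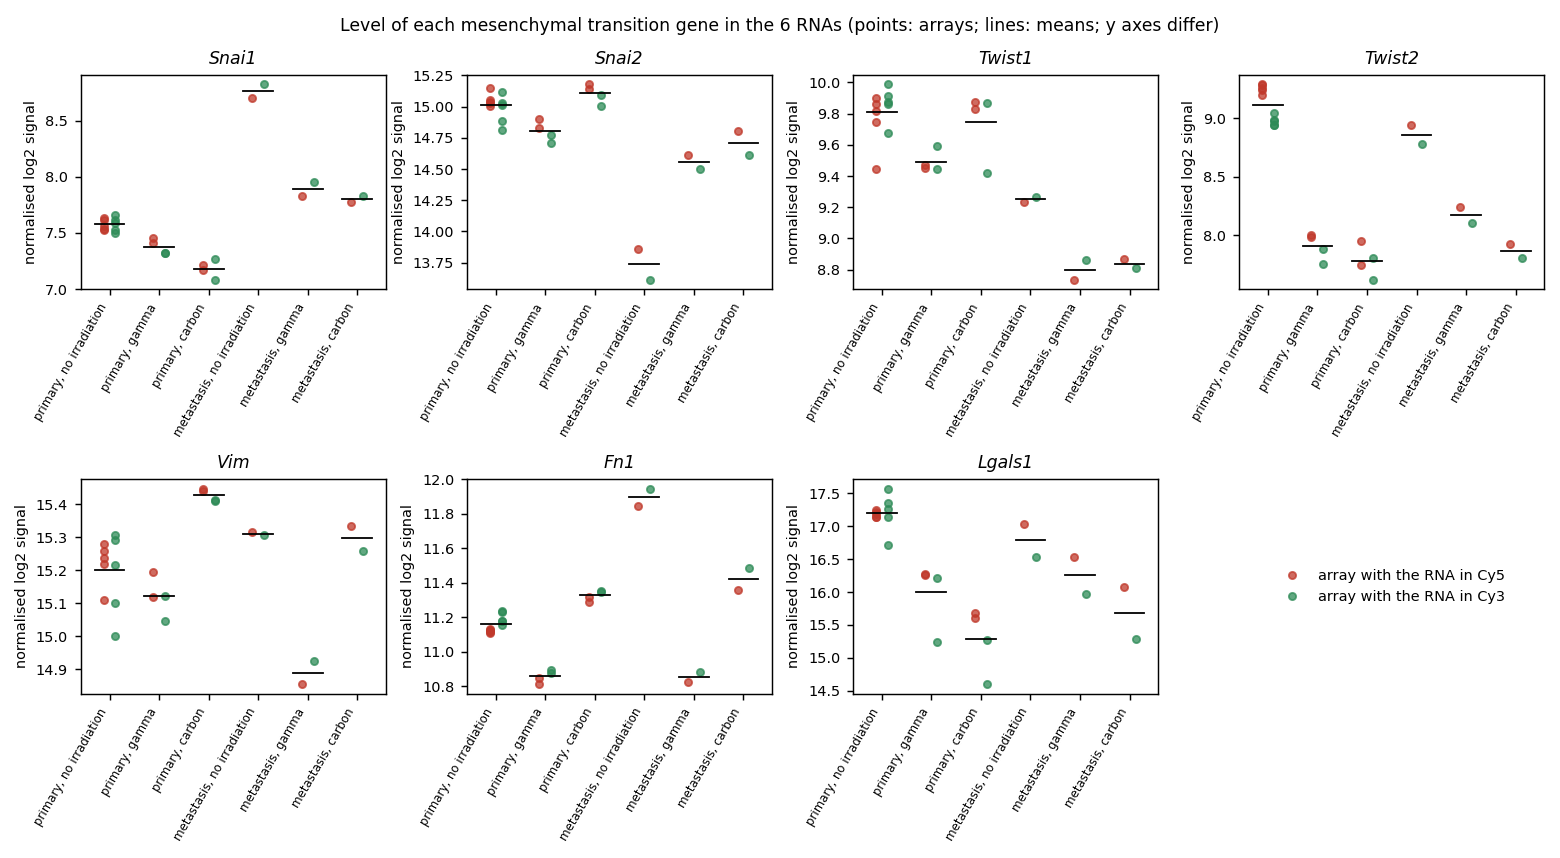
Normalised log2 signal (y axis, a separate scale per gene) of the 7 genes in the 6 RNAs (x axis), with 1 point per array coloured by the dye of the RNA and lines at the means. By mean level, Lgals1 and Twist2 are highest in the unirradiated primary, though Lgals1 there overlaps with the unirradiated metastasis. Snai1 and Fn1 are highest in the unirradiated metastasis, and Snai2 is lowest there.

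The RNAs were also compared for markers of the cells that a dissected sample could hold, since several members are expressed outside the tumour cell. Squamous keratinocyte markers, which check the tumour label, were above background on every array for 19 or 20 of 20 genes in each RNA, and their summed signals overlapped between all 6 RNAs, from 761300 at the lowest to 1216000. Skeletal muscle markers summed to between 57600 and 59860 in the unirradiated primary, 29950 and 32520 after carbon ions, 14100 and 15920 after gamma rays, and 8189 and 10650 over the 3 metastases. Casq1 of that list was below background on every array of the gamma-irradiated primary and of the metastases. Lung epithelium markers summed to between 610600 and 1086000 in the metastases and 43600 and 107500 in the primaries, where 8 of 16, among them Sftpb, Sftpc and Nkx2-1, were below background on every array of both irradiated primaries. Endothelial sums were 88160 to 91790 in the unirradiated metastasis, 37680 to 43640 in the other metastases and 8087 to 13200 in the primaries.

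Macrophage sums were 275900 to 511400 in metastases and 27760 to 61610 in primaries. Neutrophil sums lay in separate ranges among the metastases, 416000 to 756700 unirradiated, 220700 to 357600 in the gamma group and 67870 to 79110 in the carbon group, against 10390 to 46810 in the primaries, and Ngp, Camp and Mmp8 were below background on every array of the irradiated primaries. Fibroblast sums were 80000 to 86100 in the unirradiated primary and 94080 to 116500 in the irradiated primaries. In metastases they were 104900 to 109800 unirradiated and 78430 to 82650 in the irradiated groups. Of the fibroblast markers 14 or 15 of 15 were above background on every array. Smooth muscle and pericyte sums spanned 29770 to 42450 over all RNAs, with 10 of 10 above background. T and NK cell sums were lowest in the unirradiated primary, 1177 to 1382, and highest in the gamma-group metastasis, 7764 to 9166, and Cd4 and Cd247 were below background on every array of the gamma-irradiated primary. In such RNA, fewer cells of a type and less RNA per cell cannot be told apart.

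**Figure D2:**
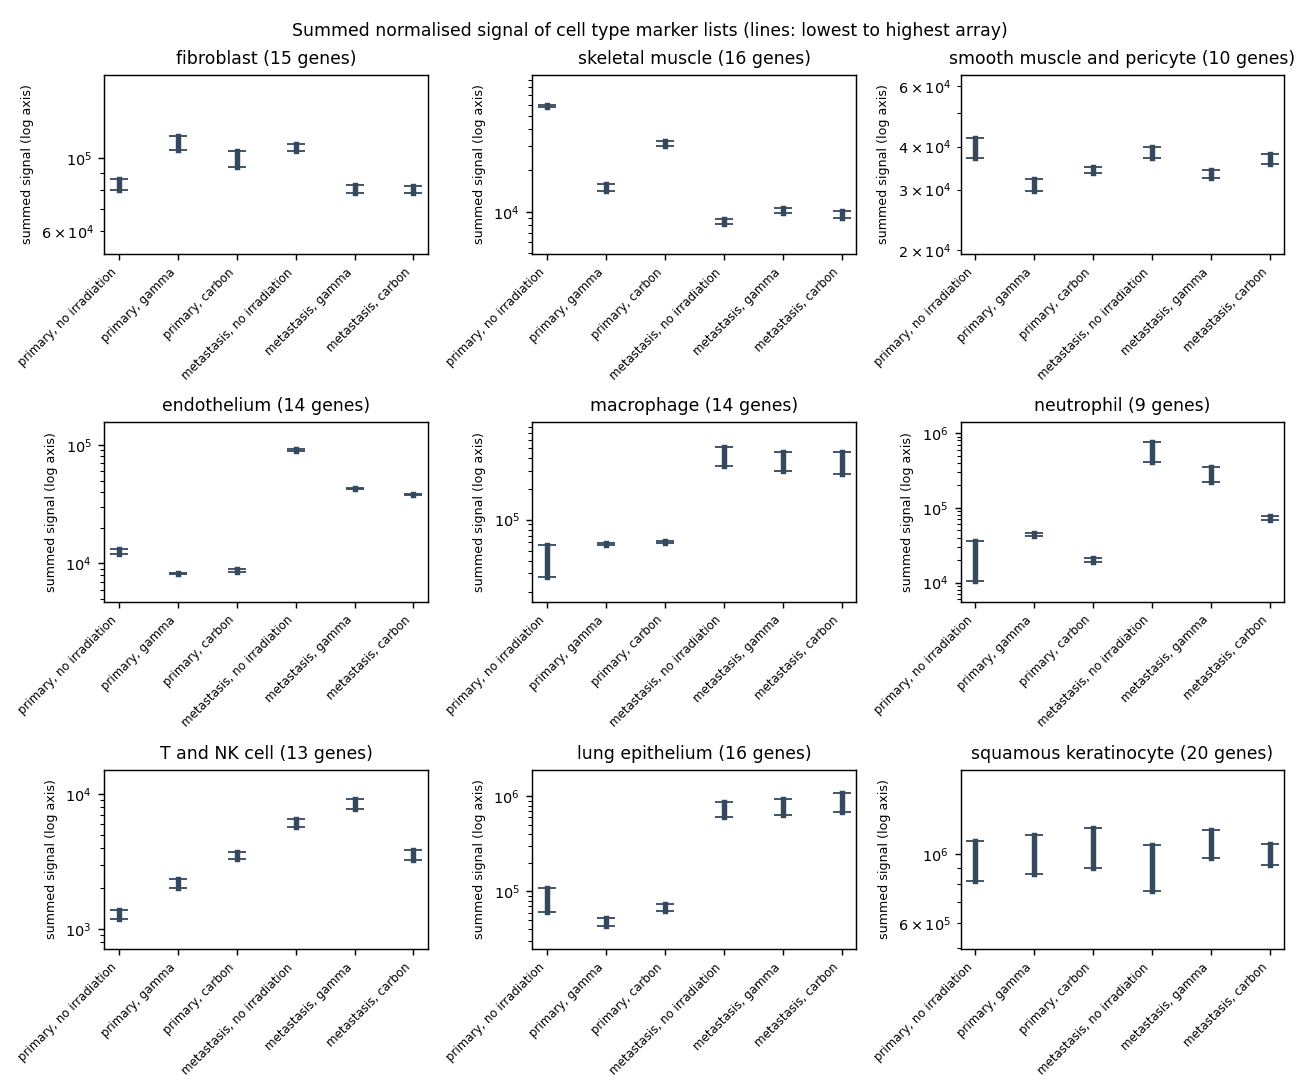
Summed normalised signal of 9 marker lists (y axes, log scale) in the 6 RNAs (x axis), with lines from the lowest to the highest array. Keratinocyte sums overlap in all RNAs, muscle sums are highest in the unirradiated primary, and lung, endothelial, macrophage and neutrophil sums are highest in metastases.

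The first question was whether these genes differed in the primary tumour 1 week after gamma rays. Lgals1 and Twist2 fell and none of the 7 rose. Lgals1 had ratios of -1.08 and -1.91 in the 2 orientations, a mean of -1.49 ± 0.58 or 2.82-fold lower, and Twist2 had -1.04 and -1.40, a mean of -1.22 ± 0.25 or 2.33-fold lower. Both orientations were below the 2-fold line for each gene, although Twist2 passed it by 0.04 in one of them. With median centring in place of loess neither passed in both orientations, at means of -1.59 and -1.17. The other 5 were closer to 0, with Twist1 at -0.41 ± 0.15, Fn1 at -0.31 ± 0.10, Snai1 at -0.25 ± 0.07, Snai2 at -0.11 ± 0.17 and Vim at -0.09 ± 0.10. The 7 had a median of -0.31, against 0.02 over all 15579 measured genes, of which 2.23% rose and 1.25% fell. Of the muscle markers 13 of 16 fell in the same comparison, with a median of -2.15, 4 of 10 T and NK cell markers rose, and 0 of 15 fibroblast markers passed in either direction (median 0.16). The part of these in the result was not tested.

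After carbon ions Lgals1 fell further and stood alone among the 7. Its ratios were -1.89 and -2.62, a mean of -2.25 ± 0.52 or 4.76-fold lower, which placed it at percentile 0.0384 of the 15636 genes measured. Twist2 had nearly the same mean as after gamma rays, -1.23 ± 0.35, but its orientations of -0.99 and -1.48 left it just short of the 2-fold line in one. It passed at -1.47 with an offset of 0 and at -1.72 in the authors' log ratios, and Lgals1 did not pass with median centring, at a mean of -2.36. Vim stood at 0.31 ± 0.19, Snai2 at 0.22 ± 0.21, Fn1 at 0.19 ± 0.07 (its second probe at 0.05 ± 0.09, with a different sign in each orientation), Twist1 at -0.01 ± 0.01 and Snai1 at -0.36 ± 0.09. Over all genes 3.9% rose and 1.07% fell, and the median was 0.02 against -0.01 for the 7. Muscle markers fell in 5 of 16 with a median of -0.85, T and NK cell markers rose in 7 of 12 with a median of 1.44, and of 6 neutrophil markers 3 fell and 1 rose. Their part was not tested.

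Carbon ions and gamma rays were then compared on the same arrays, and none of the 7 genes was 2-fold apart in both orientations. Lgals1 came nearest, with ratios of -0.61 and -0.99 and a mean of -0.80 ± 0.27, lower after carbon ions. Fn1 at 0.47 ± 0.09, Twist1 at 0.40 ± 0.02, Vim at 0.35 ± 0.08 and Snai2 at 0.31 ± 0.18 were above 0 in both orientations, and Snai1 at -0.24 ± 0.19 and Twist2 at -0.18 ± 0.25 below it. Of the 15038 genes measured, 0.884% rose and 0.16% fell. Of the muscle markers 9 of 16 rose, with a median of 1.27, and 2 of 6 neutrophil markers fell, with a median of -0.78. Smooth muscle and pericyte markers rose in 2 of 10, T and NK cell markers in 1 of 11 and lung epithelium markers in 1 of 7. Of 19 keratinocyte markers 1 fell. The part of these in the result was not tested. Taken through the unirradiated primary, the carbon and gamma differences had the same sign for 7 of 7 genes. They lay within 0.17 of the direct values, with the widest gap at Twist2.

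The unirradiated metastasis was compared with the unirradiated primary to ask how the genes differed between lung and leg without treatment. Site, collection time and mouse differed together, so they cannot be told apart here or in the other comparisons of metastasis with primary. Snai1 rose and Snai2 fell. Snai1 had ratios of 1.04 and 1.19, a mean of 1.12 ± 0.10 or 2.17-fold higher, and Snai2 had -1.26 and -1.54, a mean of -1.40 ± 0.20 or 2.64-fold lower. Fn1 was above 0 in both orientations at 0.74 ± 0.11, its second probe at 0.41 ± 0.11, and Vim stood at 0.21 ± 0.01, Twist1 at -0.59 ± 0.06 and Twist2 at -0.23 ± 0.27. For Lgals1 the orientations differed in sign, 0.32 and -0.65, so that its mean of -0.16 ± 0.68 has no direction. Neither Snai gene passed with median centring (means of 1.08 and -1.63), and Snai1 did not with scale normalization (1.04) or in the authors' log ratios (1.11). Rises were common among all 17103 genes measured, 10.4% against 1.69% that fell, so the rise of 1 of 7 members is near the background. In this comparison 13 of 16 lung epithelium, 13 of 14 endothelial, 13 of 14 macrophage, 9 of 9 neutrophil, 10 of 13 T and NK cell and 7 of 15 fibroblast markers rose, and 14 of 16 muscle markers fell. The fibroblast median was 0.15, and of smooth muscle and pericyte markers 1 of 10 rose and 2 fell. Their part in the Snai1, Snai2 and Fn1 ratios was not tested.

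In the metastasis of the gamma group, none of the 7 passed in either direction against the unirradiated primary. The lowest were Lgals1 at -0.94 ± 0.47 (-0.61 and -1.27), Twist2 at -0.93 ± 0.28 (-0.74 and -1.13) and Twist1 at -0.91 ± 0.04. Snai2 stood at -0.48 ± 0.11, Vim at -0.37 ± 0.11, Fn1 at -0.32 ± 0.12 and Snai1 at 0.38 ± 0.07, so 6 of 7 were below 0 in both orientations. Of 17664 genes, 8.82% rose and 1.1% fell. In the carbon group 3 of 7 fell: Lgals1 had ratios of -1.19 and -1.86 (mean -1.52 ± 0.48, 2.87-fold lower), Twist2 had -1.02 and -1.44 (-1.23 ± 0.30, 2.35-fold) and Twist1 had -1.05 in both (SD 0.003, 2.07-fold). Over 16283 genes, 8.21% rose and 1.03% fell there. Twist1 and Twist2 passed the 2-fold line by no more than 0.05 in at least one orientation. None of the 3 passed with median centring or with scale normalization, where Lgals1 was at -1.31, Twist2 at -1.06 and Twist1 at -0.90, and in the authors' log ratios Twist1 and Twist2 also passed in the gamma group, at -1.28 and -1.43. Snai2 at -0.33 ± 0.13, Fn1 at 0.29 ± 0.12, Snai1 at 0.26 ± 0.03 and Vim at 0.02 ± 0.03 did not pass. The second Fn1 probe lay on the other side of 0, at -0.29 and -0.01 (mean -0.15 ± 0.20), so Fn1 has no settled direction in the carbon group, while in the gamma group it gave -0.58 ± 0.15. Muscle markers fell in 14 of 16 in the gamma group and 15 of 16 in the carbon group, with medians of -3.10 and -3.22. In the gamma group 14 of 16 lung epithelium, 8 of 14 endothelial, 5 of 14 macrophage, 8 of 9 neutrophil, 10 of 13 T and NK cell and 5 of 15 fibroblast markers rose (1 fibroblast marker fell). In the carbon group the rises were 14 of 16, 9 of 14, 4 of 14, 2 of 9, 8 of 12 and 2 of 15 in that order (1 fibroblast marker fell). The part of these cells in the Lgals1, Twist2 and Twist1 ratios was not tested.

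**Figure D3:**
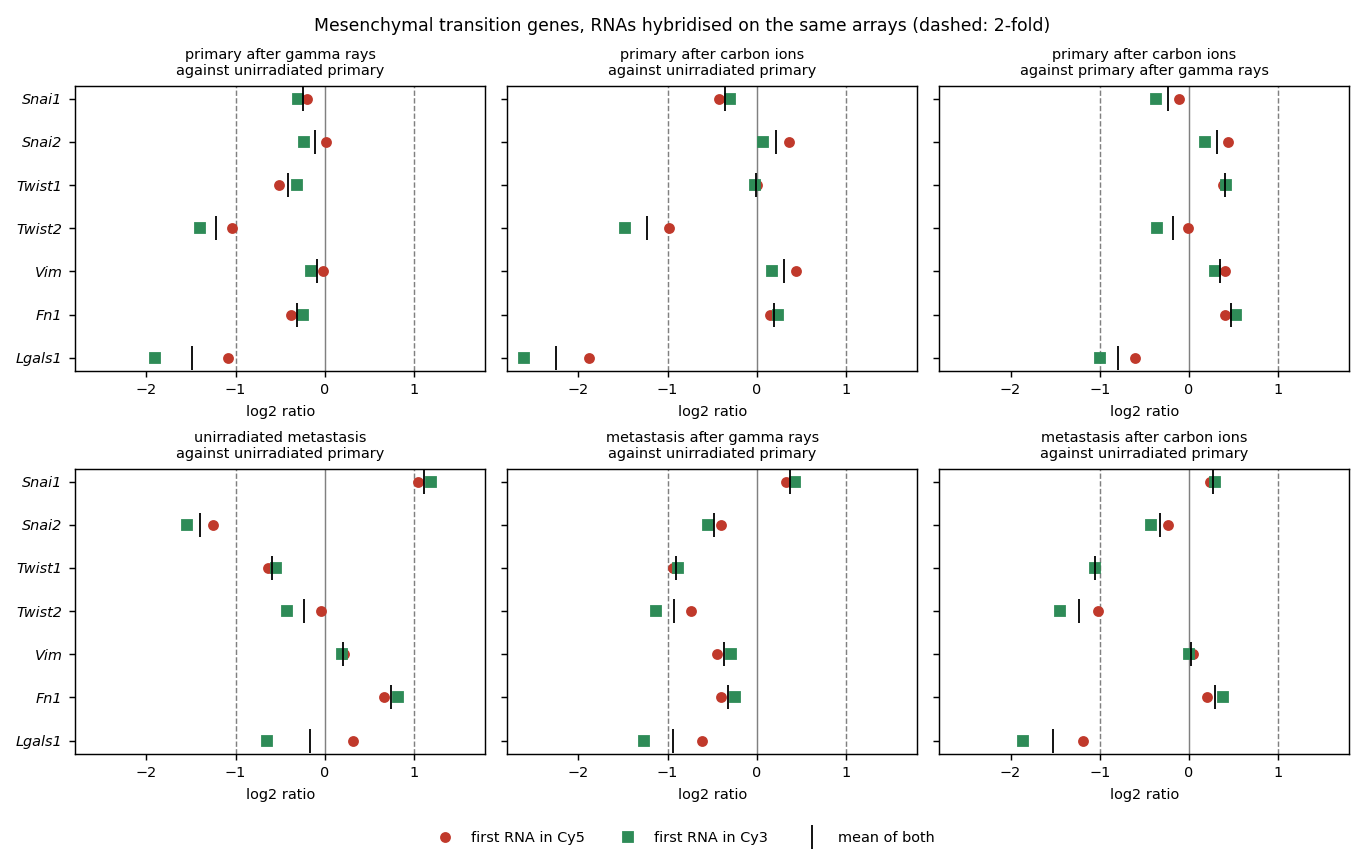
Log2 ratios (x axis) of the 7 genes (y axis) in the 6 pairs of RNAs that shared arrays, with a circle and a square for the 2 dye orientations, a bar for their mean and dashed lines at 2-fold. Lgals1 and Twist2 lie lowest after irradiation of the primary, and Snai1 and Snai2 lie on opposite sides in the unirradiated metastasis.

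How the metastases differed with the treatment of the primary was read through the unirradiated primary, by subtracting ratios of arrays that carried it in the same dye. A dye offset cancels there, so the smaller SDs do not mean greater precision, and these comparisons share their arrays with those above. In the gamma group against the unirradiated metastasis Fn1 fell, with -1.07 and -1.06, a mean of -1.06 ± 0.01 or 2.09-fold lower. Its second probe gave -0.98 ± 0.04 and the dimmest -0.16 ± 0.39, and with scale normalization Fn1 stood at -0.97 and did not pass. Snai2 was nearest in the other direction at 0.92 ± 0.09, and Lgals1 stood at -0.78 ± 0.22, Snai1 at -0.74 ± 0.03, Twist2 at -0.70 ± 0.01, Vim at -0.58 ± 0.12 and Twist1 at -0.32 ± 0.02. The median of the 7 was -0.70, against -0.03 over 17346 genes, of which 1.84% rose and 1.4% fell. Markers that fell beside Fn1 were 7 of 9 for neutrophils (1 rose), 6 of 14 for macrophages, 1 of 14 for endothelium and 1 of 15 for fibroblasts (fibroblast median -0.54). Of 16 lung epithelium markers 4 rose, as did 1 of 13 for T and NK cells. The part of these cells in the result was not tested.

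In the carbon group against the unirradiated metastasis Lgals1 fell and Snai2 rose. Lgals1 had -1.51 and -1.21, a mean of -1.36 ± 0.21 or 2.56-fold lower, and Snai2 had 1.03 and 1.12, a mean of 1.07 ± 0.06 or 2.10-fold higher. Twist2, at -0.98 and -1.02 with an SD of 0.03, lay on the 2-fold line and did not pass. It passed at -1.23 with an offset of 0, at -1.25 in the authors' log ratios and at -1.02 with the first RNA in Cy3 alone, and Snai2 did not pass with median centring (0.88) or scale normalization (1.03). Snai1 stood at -0.85 ± 0.07, Twist1 at -0.46 ± 0.06, Fn1 at -0.45 ± 0.01 and Vim at -0.18 ± 0.02. Of 16732 genes 1.85% rose and 2.37% fell. Neutrophil markers fell in 8 of 9 (1 rose) with a median of -3.44, and macrophage, endothelial, fibroblast and T and NK cell markers in 5 of 14, 4 of 14, 3 of 15 and 1 of 12. Lung epithelium markers rose in 3 of 16. The part of these cells was not tested. The unirradiated and gamma-group metastases lay on the same slide and the carbon group on another, so slide and group cannot be told apart in this contrast. The same holds for the carbon against the gamma metastasis and for metastasis against primary after gamma rays and after carbon ions, whose RNAs also lay on different slides.

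Between the carbon and gamma metastases none of the 7 passed, and 0.239% of 17130 genes rose and 1.07% fell. Fn1 stood at 0.61 ± 0.01 and Vim at 0.39 ± 0.14, both higher in the carbon group in both orientations, the second Fn1 probe at 0.42 ± 0.05, and Lgals1 at -0.58 ± 0.01. The other 4 lay between -0.30 and 0.15. Neutrophil markers fell in 5 of 9, with a median of -1.23, and T and NK cell markers in 2 of 13, with a median of -0.70. Macrophage, endothelial and fibroblast markers fell in 1 of 14, 1 of 14 and 1 of 15. The part of these cells in the Fn1, Vim and Lgals1 ratios was not tested.

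Metastasis and primary were last compared after the same treatment. After gamma rays none of the 7 passed, while 7.79% of 17243 genes rose and 0.905% fell. Snai1 stood at 0.63 ± 0.14, Lgals1 at 0.55 ± 0.12, Twist2 at 0.29 ± 0.03, Fn1 at -0.01 ± 0.01 (second probe -0.20 ± 0.07), Vim at -0.28 ± 0.21, Snai2 at -0.37 ± 0.07 and Twist1 at -0.50 ± 0.11. After carbon ions Twist1 fell, with -1.05 and -1.03, a mean of -1.04 ± 0.01 or 2.06-fold lower, though not with scale normalization, at -0.89. Lgals1 at 0.73 ± 0.04, Snai1 at 0.63 ± 0.06 and Snai2 at -0.54 ± 0.08 did not pass. The other 3 lay between -0.28 and 0.10, and the second Fn1 probe at -0.20 ± 0.11 was opposite in sign to the first. There 6.86% of 16214 genes rose and 1.93% fell. Muscle markers fell in 12 of 16 beside Twist1, with a median of -1.93, and in 8 of 15 after gamma rays. Rises after gamma rays were 13 of 16 for lung epithelium, 13 of 14 for endothelium and 8 of 9 for neutrophils. They were 9 of 13 for T and NK cells, 5 of 14 for macrophages and 4 of 15 for fibroblasts (1 fibroblast marker fell). Beside Twist1, 12 of 16 lung epithelium, 9 of 14 endothelial, 6 of 9 neutrophil, 3 of 14 macrophage and 3 of 15 fibroblast markers rose, and 1 fibroblast and 1 T and NK cell marker fell. The part of these cells was not tested. Over the 11 comparisons Lgals1 passed in 4, Snai2, Twist1 and Twist2 in 2 each, Snai1 and Fn1 in 1 each and Vim in 0.

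**Figure D4:**
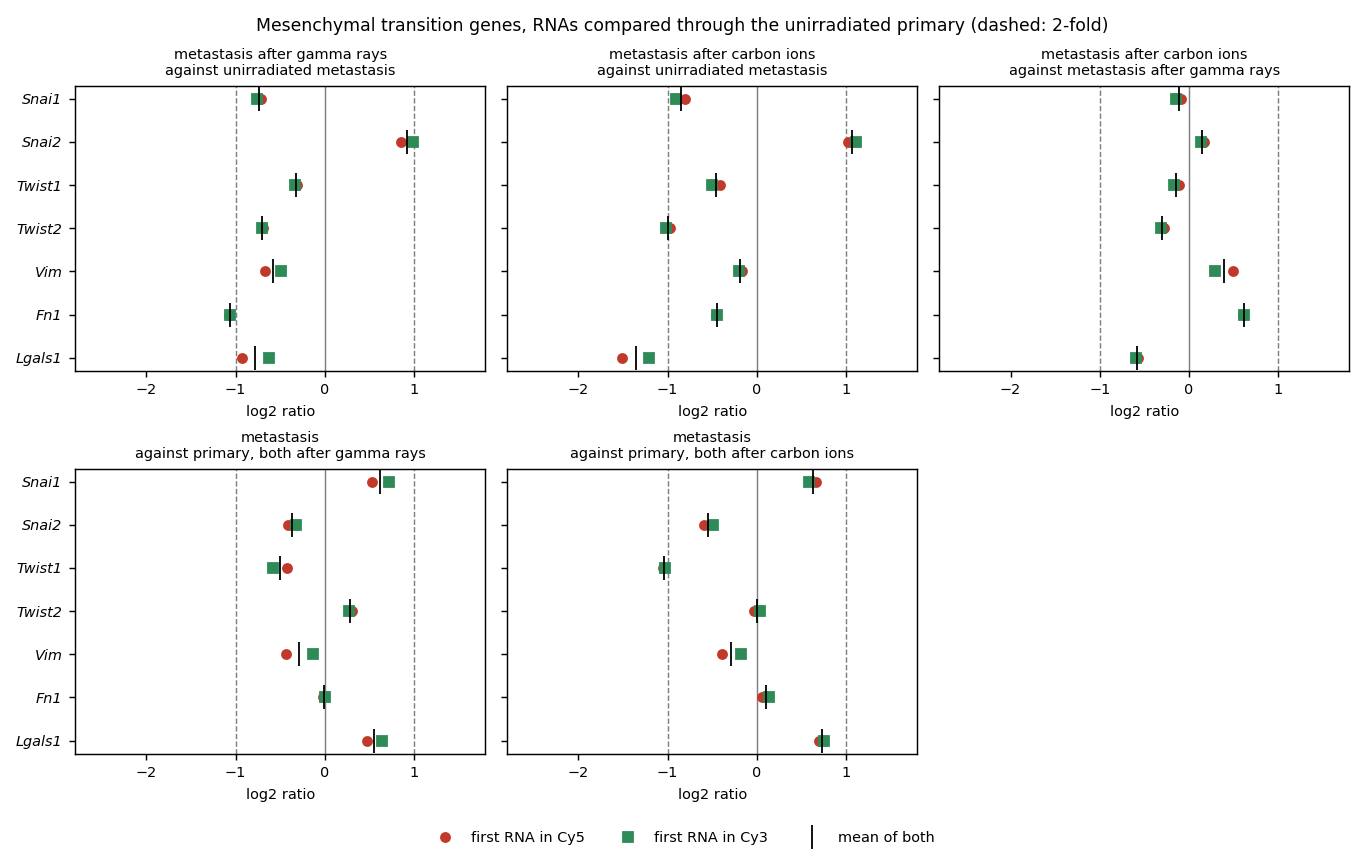
Log2 ratios (x axis) of the 7 genes (y axis) in the 5 pairs of RNAs compared through the unirradiated primary, with a circle and a square for the 2 dye orientations, a bar for their mean and dashed lines at 2-fold. Against the unirradiated metastasis, Snai2 lies to the right and the other 6 genes to the left in both irradiated groups.

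Genes that act beside the members were described from lists by role. Of 14 measured further transcription factors of the transition, 1 fell in each irradiated primary, Hmga2, which encodes a chromatin protein of embryonic and tumour cells, at -2.49 ± 0.23 after gamma rays and -2.46 ± 0.26 after carbon ions. Over all genes 1.25% and 1.07% fell in these primaries. In the unirradiated metastasis 4 of 14 rose and 1 fell, beside 10.4% and 1.69% of all genes. Zeb2, a zinc finger repressor like Snai1, rose by 1.79 ± 0.06, and Id1 and Id2, which inhibit basic helix-loop-helix factors, rose by 2.81 ± 0.14 and 2.89 ± 0.22. Id1 and Id2 also rose in the gamma group (2.28 ± 0.11 and 2.63 ± 0.20) and the carbon group (2.00 ± 0.05 and 2.69 ± 0.28), where 2 of 14 rose and Hmga2 fell by 1.91 ± 0.35 and 2.26 ± 0.36. In the gamma and carbon groups 8.82% and 8.21% of all genes rose and 1.1% and 1.03% fell. The list medians ran from -0.23 to 0.20 in the 6 direct comparisons, against 0.01 to 0.06 over all genes. Endothelial and macrophage markers rose in 13 of 14 each in the unirradiated metastasis, and the part of these cells was not tested.

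Among the signals that induce the transition, 1 of 19 fell after gamma rays and 1 of 20 after carbon ions, beside 1.25% and 1.07% of all genes. In both cases it was Areg, a ligand of the epidermal growth factor receptor, at -1.61 ± 0.29 and -1.59 ± 0.14. In the unirradiated metastasis 3 of 21 rose and none fell, namely the transforming growth factor beta receptors Tgfbr1 at 1.52 ± 0.53 and Tgfbr2 at 2.64 ± 0.11, and the ligand Bmp4 at 2.54 ± 0.05. That count is near the 10.4% of all genes that rose there, and the list median was 0.09 against 0.05 over all genes. Tgfbr2 and Bmp4 rose as well in the gamma group, at 1.99 ± 0.09 and 2.25 ± 0.06, and in the carbon group, at 2.13 ± 0.11 and 2.77 ± 0.03. They were 2 of 21 and 2 of 19 measured, near the 8.82% and 8.21% of all genes that rose in these groups. None of this list passed between irradiated and unirradiated metastases, of 21 measured.

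Matrix and effector genes of mesenchymal cells passed in small numbers in the primaries, and some fell in the irradiated metastases. In the gamma-irradiated primary 2 of 38 fell and none rose, Timp1, an inhibitor of metalloproteinases, at -1.20 ± 0.07 and Spp1, the matrix protein osteopontin, at -1.82 ± 0.21. Over all genes 1.25% fell and 2.23% rose there. After carbon ions 4 of 39 fell and 1 rose, beside 1.07% and 3.9% of all genes. Timp1 and Spp1 were at -1.44 ± 0.07 and -1.29 ± 0.33, the gelatinase gene Mmp9 at -1.48 ± 0.13, and Ccn2, which encodes a matricellular growth factor, at 2.26 ± 0.11. Ccn2 was also higher after carbon ions than after gamma rays, by 1.13 ± 0.05. The list median was -0.24 and -0.22 in the irradiated primaries and 0.29 in the unirradiated metastasis, where 3 of 39 rose against 10.4% of all genes, among them Mmp9 at 1.61 ± 0.23. In the gamma-group metastasis 6 of 39 fell against the unirradiated metastasis and none rose, beside 1.4% and 1.84% of all genes. The list median was -0.61, and Timp1 stood at -1.61 ± 0.07, Mmp9 at -1.49 ± 0.00 and Spp1 at -1.16 ± 0.08. In the carbon group 4 of 39 fell, beside 2.37% of all genes, with a median of -0.27. Mmp9 stood there at -2.40 ± 0.01 and Timp1 at -1.55 ± 0.08. Neutrophils also express Mmp9, and their markers fell in the same comparisons as given above, as did some macrophage, endothelial and fibroblast markers. The part of these cells in the Mmp9, Timp1 and Spp1 ratios and in the list medians was not tested. That of the marker shifts in the irradiated primaries, given above, was not tested either.

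Some epithelial junction and identity genes, a class that holds known targets of Snai1 and Snai2, rose in metastases and none fell there. Against the unirradiated primary, 8 of 40 rose in the unirradiated metastasis, 7 of 40 in the gamma group and 10 of 40 in the carbon group, beside 10.4%, 8.82% and 8.21% of all genes. Most of the list did not pass, and its medians were 0.20, 0.30 and 0.33, against 0.05, 0.06 and 0.06 over all genes. The tight junction genes Ocln, Cldn7 and Tjp3 stood at 2.02 ± 0.19, 2.02 ± 0.10 and 2.28 ± 0.10 in the unirradiated metastasis, where Snai1 was up and Snai2 down, and Grhl1, an epithelial transcription factor, at 1.46 ± 0.03. Lung epithelium also expresses junction genes, and 13 or 14 of 16 of its markers rose in the same 3 comparisons. The part of these cells in the junction gene ratios was not tested. In the primaries 2 of 39 rose and 2 fell after gamma rays, beside 2.23% and 1.25% of all genes, with Tjp3 at 1.48 ± 0.05. After carbon ions 1 of 38 rose and 1 fell, near the 3.9% and 1.07% of all genes. None of 40 passed between the gamma-group and unirradiated metastases, where 1.84% of all genes rose and 1.4% fell. In the carbon group 1 of 40 rose, near the 1.85% of all genes.

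Relatives of Lgals1, Vim and Fn1 were read in the same way. No other galectin passed in any of the 11 comparisons, with between 5 and 8 of 8 measured. Where Lgals1 fell in the carbon-irradiated primary, Lgals9 stood at 1.09 ± 0.13, without passing in both orientations, and Lgals3 at 0.26 ± 0.19. Of 4 measured intermediate filament genes other than Vim, the muscle filament gene Des, which is also on the muscle list, stood at -2.92 ± 0.09 in the gamma-irradiated primary and fell to -2.52 ± 0.14, -2.75 ± 0.11 and -3.08 ± 0.09 in the unirradiated, gamma and carbon metastases, while Vim passed nowhere. Synm, another muscle filament gene, rose by 1.33 ± 0.07 in the unirradiated metastasis. Receptors and partners of fibronectin rose in 4 of 11 in the unirradiated metastasis, beside 10.4% of all genes. These were the integrin genes Itga4 at 1.78 ± 0.16, Itga8 at 3.04 ± 0.19 and Itgb6 at 2.43 ± 0.19 and the matrix cross-linker Tgm2 at 3.66 ± 0.12. The list median was 0.84, and Fn1 stood at 0.74. Lung epithelium, endothelial, macrophage and fibroblast markers rose there in 13 of 16, 13 of 14, 13 of 14 and 7 of 15, and their part was not tested. None of 11 passed between irradiated and unirradiated metastases. Their median was -0.61 in the gamma group, where Fn1 fell, and -0.26 in the carbon group, and 4 of the 11 (Itga5, Itgav, Itgb1 and Tnc) are also on the matrix list.

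The genes nearest to each member were found over the 5 ratios to the unirradiated primary, by the root mean square difference on the log2 scale among 15005 genes measured in all 5. These 5 ratios share the unirradiated primary, so an error in it moves all of them alike. For Lgals1 the nearest were Ptgs2, which encodes the inducible cyclooxygenase, at 0.238, the chemokine gene Cxcl1 at 0.268 and Arl4d at 0.373. Ptgs2 stood at -1.82 and -1.98 in the gamma and carbon primaries, and at -0.10, -1.05 and -1.22 in the unirradiated, gamma and carbon metastases. For Twist2 they were Fam169a at 0.133, Usp17la at 0.228 and the homeobox gene Prrx2 at 0.231. Prrx2 stood at -1.06 and -0.89 in the primaries and at -0.38, -1.18 and -1.44 in the metastases.

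Twist1 was near to Sptb, the erythroid and muscle spectrin gene, at 0.133 and to Smtnl1 at 0.160. Sptb had ratios of -0.45 and -0.27 in the gamma and carbon primaries and -0.61, -0.95 and -0.92 in the unirradiated, gamma and carbon metastases. Twist1 itself had -0.41, -0.01, -0.59, -0.91 and -1.05 in that order. Snai1 was nearest to Sec24a at 0.0843, Slco2a1 at 0.0974 and Pet100 at 0.100, and Snai2 to Rdh5 at 0.0887, Rbp7 at 0.142 and Vsnl1 at 0.145. Fn1 and Vim passed in none of these 5 comparisons and were not matched.

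**Figure D5:**
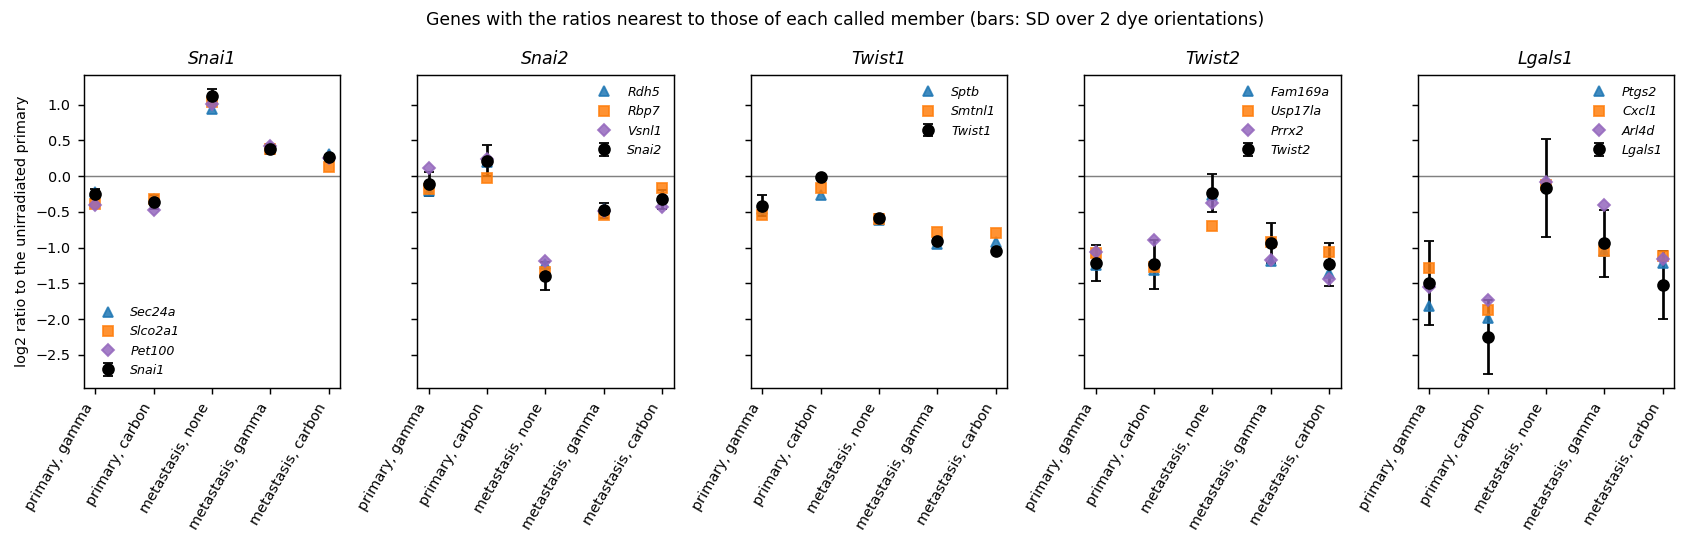
Log2 ratios to the unirradiated primary (y axis) in 5 RNAs (x axis) for the 5 members that passed in at least 1 of these comparisons, in black with SD over 2 dye orientations, and for the genes with the smallest difference from each, 3 per member and fewer for Twist1. As a root mean square, the neighbours of Snai1 differ from it by 0.0843 to 0.100 and those of Lgals1 by 0.238 to 0.373.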

How the data were processed

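Two-colour Agilent arrays compared 6 RNAs of laser-microdissected tumour cells in 6 dye swaps. Per the file headers, Feature Extraction 9.1.3.1 quantified the scans. The deposited intensity values are mean spot and median local background brightness per channel, not normalized. The deposited log10 ratio is Cy5 over Cy3 of signals that, per the file headers, were spatially detrended and normalized between dyes (linear and LOWESS). The authors' table holds the same log10 ratios within 0.005, with column medians of 0. Other steps by the submitters: not given in the sources used here.

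The local background was removed by normexp (offset 50), which pulls ratios of dim spots, such as those of Snai1 and Twist2, toward 0. Loess within each array, ignoring control spots, was run in limma 3.58.1 (R 4.3.3, data.table version 1.17.8), and ratios were turned by the dyes in the labels. Later steps used Python 3.11.15, numpy 2.4.6 and pandas 2.3.3. Levels per channel were taken after Aquantile scaling between arrays. Each array held 43379 non-control spots, of which 16 to 58 were left out as outliers and none was saturated, and 53.82% to 68.81% per channel were well above background. The number of arrays limits the precision.

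Spots were averaged per probe, and the brightest probe stood for a gene. A gene was measured where at least 1 of both RNAs was well above background in each dye orientation of a comparison. It passed at a log2 size of 1 or more with the same sign in both orientations. Other probes were named through a RefSeq table of GRCm38.p6, by accession for 22942, by symbol for 6658 and by older symbol for 3109, and 8455 kept the file's name. The text names all members, at most 4 genes per list, those passing in most direct comparisons, and 3 neighbours per member, of which 1 of Twist1 is not reported here. The members and lists were chosen with earlier results of these data known. Alternatives were the offset, the normalization, the filter, the probe, the authors' table and each orientation alone.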

Additional observations from a re-analysis of the deposited data

Results flagged for a closer look

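Among the pairs of contrasts set side by side here, 8 cases had a member above 0 in both dye orientations under one condition and below 0 in both under another. These do not cover every pair of ratios in the report. Against the unirradiated primary, for instance, Vim stood at 0.21 ± 0.01 in the unirradiated metastasis and at -0.37 ± 0.11 in the gamma group. None of these differences was tested, since there was 1 RNA per group, and none of the ratios reached 2-fold. After carbon ions, Vim stood at 0.31 ± 0.19 in the primary and at -0.18 ± 0.02 in the metastasis, each against its unirradiated counterpart, a difference of 0.49, and Fn1 stood at 0.19 ± 0.07 and -0.45 ± 0.01, a difference of 0.64. Between the irradiated primaries, Vim was at 0.31 after carbon ions and at -0.09 ± 0.10 after gamma rays (difference 0.40), and Fn1 at 0.19 and -0.31 ± 0.10 (difference 0.50). The second Fn1 probe had no direction in the carbon-irradiated primary, at -0.01 and 0.11, so the Fn1 turns that use this primary rest on the brightest probe. Metastasis against primary gave Vim 0.21 ± 0.01 unirradiated, -0.28 ± 0.21 after gamma rays (difference 0.49) and -0.28 ± 0.15 after carbon ions (difference 0.49). The same contrast gave Fn1 0.74 ± 0.11 unirradiated and -0.01 ± 0.01 after gamma rays (difference 0.75), and Twist2 -0.23 ± 0.27 and 0.29 ± 0.03 (difference -0.52). The Fn1 orientations after gamma rays were -0.02 and -0.0009 on the brightest probe, hardly below 0, and -0.26 and -0.15 on the second probe. The pairs of ratios share RNAs, so they are not independent of each other.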

How the results depend on the processing

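Over 9 alternatives the 7 genes gave 693 ratios, of which 679 kept their sign, and no ratio of a gene that passed turned. The 12 ratios past 2-fold were kept in 90 of 108 cases, and the cases lost or gained are as follows. With median centring, which leaves the intensity-dependent dye effect in, the number of members that passed was 0 in the gamma-irradiated primary, 0 in the carbon-irradiated primary, 0 in the unirradiated metastasis and 0 in the carbon-group metastasis, each against the unirradiated primary, and 1 in the carbon-group against the unirradiated metastasis. Mean ratios in the direct comparisons stayed past 1 in size (Lgals1 -2.36 after carbon ions, Snai2 -1.63). With scale normalization between arrays it was 1 in the unirradiated metastasis (Snai2), 0 in the carbon-group metastasis, 0 in the gamma-group and 1 in the carbon-group against the unirradiated metastasis, and 0 in metastasis against primary after carbon ions. The authors' table gave 2 in the carbon-irradiated primary (Twist2 added, at -1.72), 1 in the unirradiated metastasis and 2 in the gamma group (Twist1 and Twist2). With an offset of 0 it was 2 and 1 for the carbon primary and gamma metastasis, and with the first RNA in Cy3 alone 2 and 2. In the carbon-group against the unirradiated metastasis Twist2 was added under these 3 settings, at -1.25, -1.23 and -1.02, which took the count from 2 to 3. The mean of all Fn1 probes took Fn1 to -0.74 in the gamma-group metastasis and its count to 0. Among uncalled ratios, Vim turned from 0.02 to -0.43 in the carbon-group metastasis with median centring. The authors' table passed more genes in each comparison: 1020 for 543, 1390 for 778, 328 for 157, 3232 for 2070, 3369 for 1753 and 2609 for 1505 in the direct comparisons in the order of the report, and 1506 for 563, 1548 for 706, 594 for 224, 2739 for 1500 and 2480 for 1425 in the others. An offset of 0 gave 248 genes for carbon against gamma primary, 2666 for the gamma metastasis against the unirradiated primary, and 993, 1086 and 361 among the metastases. Median centring gave 337, 473 and 73 in the primaries, and carbon against gamma primary had 266 with scale normalization and 257 with carbon in Cy5 alone. The authors' table moved the share of rises among genes that passed by over 10 percentage points in the carbon primary (67.41% for 78.41%), carbon against gamma primary (71.65% for 84.71%), the unirradiated and gamma metastases (73.05% for 86.04% and 76.97% for 88.88%), gamma against unirradiated metastasis (67.00% for 56.84%) and metastasis against primary after gamma rays (77.91% for 89.60%). Median centring moved it to 46.51%, 78.86% and 65.15% in gamma against unirradiated metastasis and in metastasis against primary after gamma rays and carbon ions (78.04% before), and scale normalization moved the first to 45.28%. The median of all genes shifted by -0.17 with median centring in both irradiated metastases and by -0.19 in both comparisons with the matching primary, and by -0.15 to -0.10 with the authors' table in the 3 metastases. No paired analysis was possible because the labels give 1 RNA per group. Signal over background limits Snai1, the dimmest member.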
